A study of Mus musculus with 6 samples.

Results

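The genes examined here were 10 targets of hypoxia-inducible factor (HIF) outside glycolysis: Hif1a, Vegfa, Egln1, Egln3, Bnip3, Adm, Ankrd37, Ndrg1, P4ha1 and P4ha2. They were chosen by symbol from the 21878 gene symbols of the expression table, and all 10 are listed in it. The RNA came from HT22 cells, an immortalized mouse hippocampal neuronal line, in 3 control libraries and 3 libraries from cells given 120 µM aluminum maltolate for 24 h (Al group). Aluminum maltolate is a soluble chelate of aluminum with the food flavouring maltol. The comparison asked whether this metal chelate moved the RNA of HIF target genes as a hypoxia-like response would. The libraries were the input libraries of an m6A immunoprecipitation experiment (MeRIP-seq), made from fragmented RNA that had not been enriched. The methods describe a control in medium only and a maltol control, and the sources used here do not state which was sequenced. The sample labels carry the letters C and M alone, so the treatment and the dose of the Al libraries come from the study's description, and its design text gives only a range of doses for the whole experiment. The 24 h stand in its general treatment methods. The study calls the replicates biological, the labels do not name separate cultures, and P values measure only the spread between these samples.

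HIF is a transcription factor made of an oxygen-labile alpha subunit, such as the product of Hif1a, and a stable partner, the product of Arnt. With oxygen, prolyl hydroxylases of the Egln family mark the alpha subunit for ubiquitination by the Vhl complex, and these enzymes need iron and 2-oxoglutarate as well. Without hydroxylation the alpha subunit persists and binds short DNA elements near genes for blood vessel growth, mitophagy, matrix building and glycolysis, and Egln1 and Egln3 are themselves among the targets. HIF protein and its binding were not measured in these libraries, and the RNA of Hif1a says little about the amount of its protein.

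The DNA element that HIF binds has the core ACGTG or GCGTG. RefSeq promoter windows on GRCm38.p6, running from 250 bases before a transcription start to 50 after it, were matched by symbol for 9 of the 10 genes (all but Ndrg1), as 10 windows with 2 for Vegfa. A core on either strand was found in 9 of the 10 windows and in 43.8% of the 32851 windows of all genes, with ACGTG in 19.6% and GCGTG in 32.4% of them. The windows of these genes were 54.7% to 86.0% G and C, against a median of 52.7% over all windows, so the shares are not matched for base composition. The 10 windows held 26 matches, of which 4 lay in the palindrome CACGTG, where each strand gives 1 match. The second window of Vegfa, the one at the 5′ end of the gene as GENCODE gives it, held none of these letters. The windows follow RefSeq starts, and those of Ankrd37, Hif1a and P4ha2 and the first of Vegfa lie inside the gene spans that GENCODE gives. The windows of the 5 genes with a window that passed the thresholds of the RNA comparison are printed here, to show the sequence around a RefSeq start of the genes whose RNA was called. Each reads 5′ to 3′ on the gene's strand, in lower case, and the capitals mark the cores, with CACGT and CACGC being the same letters read from the other strand. The window of Egln1 is chr8:124949205-124949504 on the minus strand, that of P4ha1 chr10:59323046-59323345 on the plus strand, that of Ankrd37 chr8:45999801-46000100 on the minus strand, that of Adm chr7:110627407-110627706 on the plus strand and that of P4ha2 chr11:54100674-54100973 on the plus strand.
Egln1: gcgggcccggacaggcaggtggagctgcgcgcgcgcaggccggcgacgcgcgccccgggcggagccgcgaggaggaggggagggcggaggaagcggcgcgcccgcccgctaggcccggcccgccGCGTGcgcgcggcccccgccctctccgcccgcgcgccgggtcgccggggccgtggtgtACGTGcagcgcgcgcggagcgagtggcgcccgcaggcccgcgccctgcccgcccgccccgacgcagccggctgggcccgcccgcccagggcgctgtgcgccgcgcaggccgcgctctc
P4ha1: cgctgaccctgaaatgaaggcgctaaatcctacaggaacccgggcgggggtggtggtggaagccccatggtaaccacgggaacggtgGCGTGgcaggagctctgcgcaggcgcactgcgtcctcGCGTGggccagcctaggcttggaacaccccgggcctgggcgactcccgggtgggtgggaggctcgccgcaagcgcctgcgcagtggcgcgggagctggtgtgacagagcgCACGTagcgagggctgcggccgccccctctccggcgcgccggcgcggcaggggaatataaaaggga
Ankrd37: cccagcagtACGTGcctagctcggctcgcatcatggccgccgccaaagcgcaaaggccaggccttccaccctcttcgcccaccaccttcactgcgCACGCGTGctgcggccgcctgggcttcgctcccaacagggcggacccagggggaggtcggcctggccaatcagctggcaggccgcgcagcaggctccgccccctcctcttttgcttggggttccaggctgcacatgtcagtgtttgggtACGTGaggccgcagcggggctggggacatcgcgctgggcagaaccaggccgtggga
Adm: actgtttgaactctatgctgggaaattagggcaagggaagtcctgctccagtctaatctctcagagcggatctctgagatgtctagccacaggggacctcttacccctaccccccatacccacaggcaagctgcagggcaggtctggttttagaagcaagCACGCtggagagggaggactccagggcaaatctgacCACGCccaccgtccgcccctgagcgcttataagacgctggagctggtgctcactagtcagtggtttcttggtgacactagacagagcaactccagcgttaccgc
P4ha2: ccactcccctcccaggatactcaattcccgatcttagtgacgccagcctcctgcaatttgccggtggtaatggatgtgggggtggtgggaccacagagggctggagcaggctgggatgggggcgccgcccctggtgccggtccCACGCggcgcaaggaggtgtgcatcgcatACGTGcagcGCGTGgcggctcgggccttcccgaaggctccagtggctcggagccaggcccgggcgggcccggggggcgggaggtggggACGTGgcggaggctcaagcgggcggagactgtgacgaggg
Egln1 and P4ha1, which were higher in the Al group, held 2 and 3 cores, and Adm and P4ha2, which were lower, held 2 and 4. The window of Ankrd37 held 4, with the closest starting 6 bases before the start site and with 2 that overlap each other. Both cores of Adm were GCGTG read from the other strand. A match describes the letters of the window and is not evidence of binding.

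Gene expression was deposited as FPKM, the number of fragments scaled by gene length and by the counted reads of the library. These values behave as reads divided by 38059492, 43422481 and 44556768 reads in control replicates 1, 2 and 3 and by 26670978, 21857904 and 21125631 reads in Al replicates 1, 2 and 3, so that counting was more precise in the control group. Each library was divided by a size factor, the median ratio of its genes to their mean over the libraries, which lay between 0.799 and 1.20, and the quotient is called scaled FPKM. The cells were first checked against markers. Of 13 neuronal genes, 11 had a mean scaled FPKM under 1, Snap25 and Nefm were at 0 in all 6 libraries, and the summed level of the list was 6.72 to 8.20 in the control group and 4.94 to 8.38 in the Al group. Of 5 fibroblast genes, 1 had a mean under 1, and the sum, made up mostly of collagen genes, was 2076 to 3351 and 3591 to 5132, so this sum moved with the treatment at this scaling, while its members Dcn and Lum fell. The summed levels of 5 astrocyte genes were 11.998 to 19.7 in the control group and 1.95 to 2.90 in the Al group, nearly all of it from Slc1a3 (means 15.9 and 1.97). The other 4 had means under 1, with Aqp4 at 0 in all libraries. The 5 microglial genes summed to 33.6 to 41.5 and 23.8 to 90.9, nearly all of it from Tmem119 (means 36.7 and 50.9). The other 4 microglial genes had means under 1, with P2ry12 at 0 in all libraries. The Al group had the higher values of the low sums of the 5 endothelial genes (0.0847 to 0.212 and 0.492 to 0.754) and the 5 oligodendrocyte genes (0.171 to 0.303 and 0.498 to 1.39). The part of these differences in the results below was not tested, and fewer cells of a type and less RNA per cell cannot be told apart.

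The HIF targets moved in both directions. Of the 10 genes, 9 had a mean FPKM of at least 0.1 and were tested, and 3 were called higher in the Al group (Egln1, P4ha1 and Ankrd37) and 3 lower (Adm, Ndrg1 and P4ha2). Hif1a, Vegfa and Bnip3 were not called. The study's thresholds were used for a call, an absolute log2 fold change over 0.58 with an unadjusted limma P under 0.05. The same thresholds called 50.6% of all 12889 tested genes, 26.2% higher and 24.4% lower, so that 6 of 9 is to be read against a background in which about every other gene was called. When limma's Benjamini-Hochberg adjusted P replaced the unadjusted one, 2 of the 9 genes were higher and 3 lower, where 49.2% of all tested genes were called. For 7 of the 9 the Al values and the control values did not overlap, against 68.1% of all tested genes. The median log2 fold change was -0.36 over the 9 genes and 0.03 over all. A single gene tested by exact permutation of 3 against 3 libraries cannot go below P = 0.1, the value reached by these 7 genes.

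**Figure D1:**
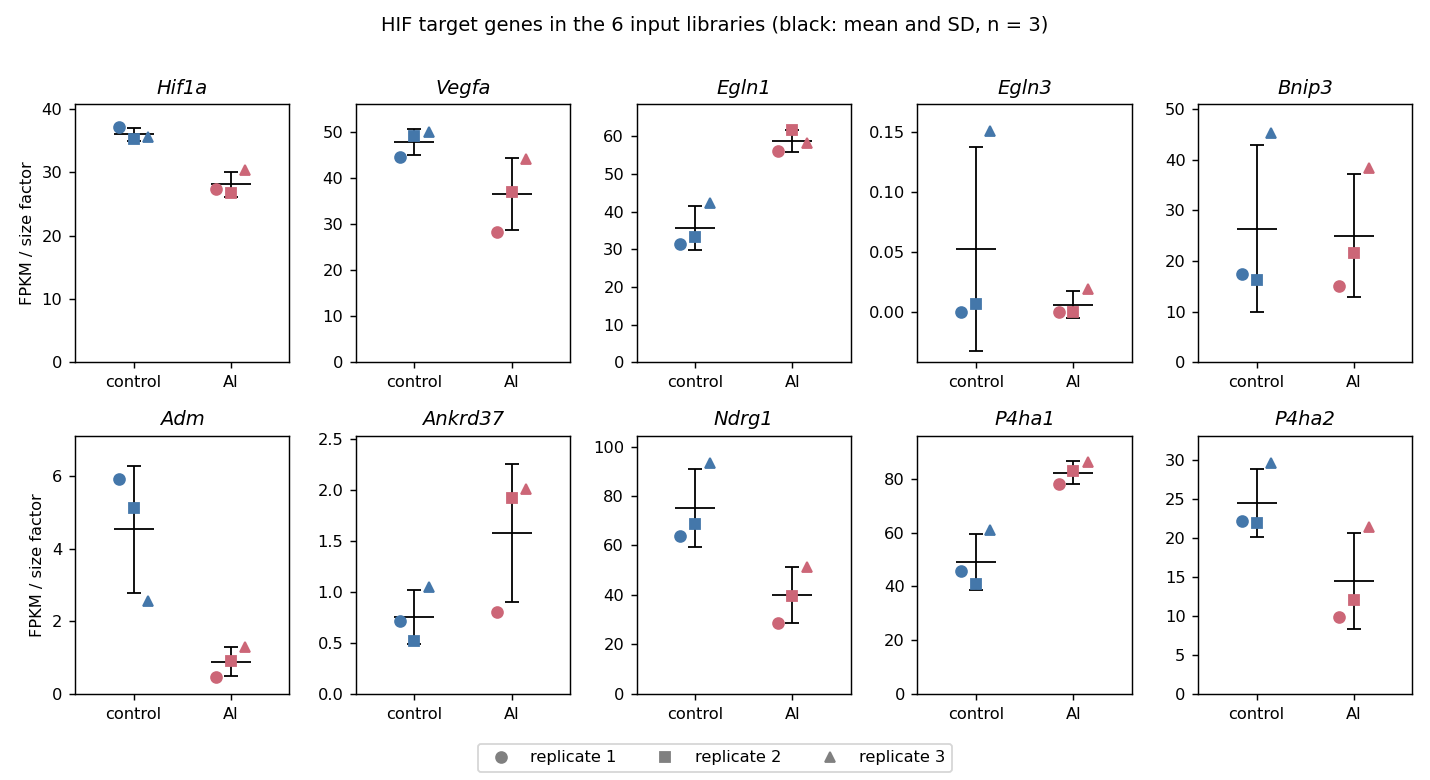
Scaled FPKM (FPKM divided by the library's size factor, linear axis) of the 10 genes in the 3 control and 3 Al libraries, each symbol 1 library and the black bars the mean and SD. The Al libraries of Egln1 and P4ha1 lie above all control libraries, those of Adm, Ndrg1, P4ha2, Hif1a and Vegfa lie below them, and the groups overlap for Egln3, Bnip3 and Ankrd37.

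Among the genes of the oxygen-sensing loop, Hif1a was slightly lower and Egln1 was higher in the Al group. Hif1a, which encodes the regulated alpha subunit, lies on chromosome 12 from 73901375 to 73947530 on the plus strand (GRCm38, GENCODE annotation, as for all genes here). Its scaled FPKM was 37.1, 35.2 and 35.6 in the controls and 27.3, 26.7 and 30.3 with Al. The groups did not overlap, and each was tight. The Al mean was 78.1% of the control mean, with a log2 fold change of -0.36 (SE 0.0927, adjusted P = 0.00898 by limma), which is smaller than the size threshold. Hif1a was called lower under the other scalings, at -0.84 for the deposited FPKM, -1.14 for TPM and -0.61 for quantile normalization. There the medians of all genes were -0.43, -0.72 and -0.03. Exons of Hif1a share 330 bases with the antisense gene Gm15283 and 148 bases with Gm49321 on the same strand, and whether reads were counted by strand is not given in the sources used here.

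Egln1 encodes the main prolyl hydroxylase that marks HIF alpha subunits (chromosome 8, 124908587 to 124949324, minus strand). Its scaled FPKM was 31.4, 33.2 and 42.2 in the controls and 56.1, 61.7 and 58.3 with Al. Control replicate 3 stood above the other controls but below every Al library. Egln1 rose to 165% of the control mean, with a log2 fold change of 0.73 (SE 0.126, 95% CI 0.44 to 1.02, adjusted P = 0.0011 by limma). The call was lost under the other scalings, at 0.24 for the deposited FPKM, -0.055 for TPM and 0.39 for quantile normalization. Relative to the median of all genes these values were 0.68, 0.66 and 0.41.

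Egln3, the inducible hydroxylase of the same family (chromosome 12, 54178981 to 54203860, minus strand), was close to absent. The control libraries held 0, 1 and 21 reads and the Al libraries 0, 0 and 1 read, so that nearly all of its reads came from control replicate 3. Its scaled FPKM in that library was 0.151, its mean fell under the minimum for the test, and no fold change is given. Counting error alone would let a library with 0 reads have an expected value as high as 3 reads.

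The other components of the loop were mostly not called. Of 16 genes for HIF subunits, sensors and degradation, 14 were tested, 2 were called higher and 2 lower, and their median log2 fold change was 0.22. This is a smaller share than the 50.6% of all tested genes that were called, and it became 1 and 3, 1 and 7, and 1 and 2 for the deposited FPKM, TPM and quantile normalization, with medians of -0.27, -0.56 and 0.11. At these scalings 1805, 1199 and 2859 of all 12889 tested genes were higher and 5417, 6845 and 3115 lower. The medians of all genes were -0.43, -0.72 and -0.03. The alternative alpha subunits Epas1 and Hif3a had 0 reads in the control libraries and a mean scaled FPKM of 0.0146 and 0.00216 in the Al libraries, so Hif1a was the alpha subunit with appreciable RNA. Their partner Arnt had a mean of 22.9 and 21.9, while its relative Arnt2, at 0.712 and 0.378, was called lower (-0.80, adjusted P = 0.0648 by limma, with overlapping groups). Egln2, the third hydroxylase of the family, fell from 36.1 ± 2.05 to 16.3 ± 2.43 scaled FPKM (SD, n = 3 each). This was a log2 fold change of -1.15 (SE 0.122). In the control group Egln1 and Egln2 thus had like levels per length, 35.6 and 36.1, and in the Al group they stood at 58.7 and 16.3. P4htm, a membrane-bound prolyl hydroxylase, was called higher from a low level, 0.160 to 0.485, with overlapping groups.

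The degradation side of the loop held 1 larger change. Tceb2, the symbol under which the table lists elongin B, an adaptor of the Vhl complex, rose from 301 to 861 scaled FPKM, a log2 fold change of 1.47 (SE 0.231). Its partner elongin C, listed as Tceb1, had a log2 fold change of 0.02. Vhl, the substrate receptor, lay wholly above the controls at 12.5 against 9.31, a log2 fold change of 0.42 that missed the size threshold. The scaffold Cul2 (0.20), the ring protein Rbx1 (0.48) and the ubiquitin ligases Siah1a (0.34) and Siah2 (0.54), which act on the Egln enzymes, had positive log2 fold changes and were not called. Siah2 lay wholly above the controls (adjusted P = 0.000667 by limma) and missed the size threshold alone. Rbx1 also missed only the size (adjusted P = 0.0256 by limma), with overlapping groups. The coactivators Ep300 (0.16) and Crebbp (0.24) also had positive values and were not called. Hif1an, the asparaginyl hydroxylase that blocks coactivator binding, had -0.29, which passed the P but not the size.

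Of the 2 secreted vascular factors, Adm fell and Vegfa was not called. Vegfa encodes the vascular endothelial growth factor (chromosome 17, 46016993 to 46032369, minus strand). Its scaled FPKM was 44.5, 49.0 and 49.8 in the controls and 28.3, 37.0 and 44.1 with Al. The Al libraries spread widely, and the highest lay just under the lowest control library. The log2 fold change was -0.41 (SE 0.155, 95% CI -0.76 to -0.057, adjusted P = 0.0451 by limma), and Vegfa was not called. Without Al replicate 1, the lowest library, it was -0.24 (adjusted P = 0.128 by limma), and the adjusted P was over 0.05 with any 1 library left out except Al replicate 3. Vegfa was called lower under the other scalings, at -0.90 for the deposited FPKM, -1.20 for TPM and -0.73 for quantile normalization. There the medians of all genes were -0.43, -0.72 and -0.03.

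Adm encodes adrenomedullin, a vasodilator peptide (chromosome 7, 110627661 to 110629820, plus strand). Its scaled FPKM was 5.93, 5.13 and 2.57 in the controls and 0.476, 0.898 and 1.29 with Al. Control replicate 3 was the lowest control and Al replicate 3 the highest Al library, and the groups still did not overlap. Adm fell to 19.6% of the control mean, the largest change of the 9 genes, with a log2 fold change of -2.24 (SE 0.385, 95% CI -3.12 to -1.36, adjusted P = 0.00109 by limma). The values rest on 368, 370 and 185 reads in the control libraries and on 14, 22 and 35 reads in the Al libraries. By Pearson correlation of log2 values over the 6 libraries, the genes most like Adm among 10348 others whose mean FPKM reached 1 were Cul7 (0.999), Ebf3 (0.998) and Rnf213 (0.995), a description over 6 libraries that share their treatment.

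Of 8 receptor genes for these 2 ligands, 4 were tested, 1 was called higher and 1 lower, where 50.6% of all tested genes were called. For the deposited FPKM and for TPM 0 were higher and 3 lower, and for quantile normalization 0 and 1. At these scalings 1805, 1199 and 2859 of all 12889 tested genes were higher and 5417, 6845 and 3115 lower. The VEGF receptors Flt1 and Kdr had mean scaled FPKM of at most 0.0381 in either group. The coreceptor Nrp1 rose from 18.5 to 28.6 (log2 fold change 0.61, SE 0.169), and Nrp2 had 48.9 and 44.3 (-0.14). For adrenomedullin, the receptor Calcrl had 3.18 and 2.34 (-0.44) and was not called. Its accessory proteins Ramp1 and Ramp2 were at or under 0.0532, and Ramp3 fell from 0.306 to 0.0251 scaled FPKM, both low levels.

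The 2 catalytic subunits of collagen prolyl 4-hydroxylase moved in opposite directions. This enzyme hydroxylates proline in collagen and, like the Egln enzymes, needs oxygen, iron and 2-oxoglutarate. P4ha1 (chromosome 10, 59323296 to 59373304, plus strand) had scaled FPKM of 45.7, 40.8 and 60.9 in the controls and 77.9, 82.7 and 86.2 with Al. Every Al library was above every control, with control replicate 3 the nearest. P4ha1 rose to 167% of the control mean, with a log2 fold change of 0.76 (SE 0.149, 95% CI 0.42 to 1.10, adjusted P = 0.00211 by limma). Its call was lost under the other scalings, at 0.27 for the deposited FPKM, -0.024 for TPM and 0.31 for quantile normalization. Relative to the median of all genes these values were 0.71, 0.69 and 0.34. P4ha2 (chromosome 11, 54100095 to 54131665, plus strand) had 22.2, 21.9 and 29.6 in the controls and 9.92, 12.1 and 21.5 with Al. Al replicate 3 lay just under the lowest control, and the other Al libraries were well below. P4ha2 fell to 59.1% of the control mean, with a log2 fold change of -0.82 (SE 0.260, 95% CI -1.41 to -0.23, adjusted P = 0.0223 by limma). Without Al replicate 2 the call of P4ha2 was lost, with a log2 fold change of -0.72 (adjusted P = 0.0805 by limma). The adjusted P was also over 0.05, with the call kept, without control replicate 3 (0.0787), without Al replicate 1 (0.0665), with no filter (0.0559) and with no trend (0.0544).

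Of 7 further genes for collagen hydroxylation and folding, 2 were called higher and 0 lower, with a median of 0.34, where 26.2% of all tested genes were higher and 24.4% lower. The counts were 2 and 1 for the deposited FPKM, 0 and 1 for TPM and 1 and 2 for quantile normalization, with medians of -0.15, -0.45 and 0.07. At these scalings 1805, 1199 and 2859 of all 12889 tested genes were higher and 5417, 6845 and 3115 lower. The medians of all genes were -0.43, -0.72 and -0.03. P4hb, the beta subunit that pairs with both catalytic subunits, rose from 363 ± 14.4 to 792 ± 82.7 scaled FPKM (SD, n = 3 each). Plod3, a lysyl hydroxylase, rose from 45.4 to 115. The third catalytic subunit P4ha3 (0.54), the lysyl hydroxylases Plod1 (0.24) and Plod2 (0.22), and the collagen chaperone Serpinh1 (0.34) were not called, nor was the prolyl 3-hydroxylase P3h1 (-0.51), which passed the P but not the size.

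Of the remaining genes, Ndrg1 fell, Bnip3 did not differ beyond its spread and Ankrd37 was called higher at the unadjusted P alone. Ndrg1, a stress-responsive gene of the N-myc downstream regulated family (chromosome 15, 66929318 to 66969640, minus strand), had scaled FPKM of 63.9, 68.7 and 93.3 in the controls and 28.7, 39.4 and 51.3 with Al. The groups did not overlap, and replicate 3 was the highest in each. Ndrg1 fell to 52.8% of the control mean, with a log2 fold change of -0.94 (SE 0.218, 95% CI -1.43 to -0.44, adjusted P = 0.00522 by limma). Its exons overlap Gm17035 and Gm2895 on the other strand over 419 and 137 bases.

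Bnip3 encodes a mitophagy receptor on the outer mitochondrial membrane (chromosome 7, 138890836 to 138909519, minus strand). Its scaled FPKM was 17.5, 16.3 and 45.4 in the controls and 15.1, 21.5 and 38.4 with Al. Replicate 3 was far above the others in each group, at 2.68 times the mean of the other controls and 2.10 times that of the other Al libraries, and the groups overlapped. The log2 fold change was -0.02 (SE 0.427), with an interval from -0.99 to 0.95 that is too wide to exclude a change of either sign, and the sign turned when control replicate 3 was left out (0.44). Bnip3 is an uncertain measurement, since 5 genes other than its antisense gene hold near-identical copies, from 93.3% to 98.9% identity over 536 to 1654 bases, and the antisense gene Gm45507 overlaps its exons over 504 bases.

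Ankrd37, a short ankyrin repeat gene (chromosome 8, 45996902 to 46005707, minus strand), had scaled FPKM of 0.713, 0.520 and 1.04 in the controls and 0.801, 1.92 and 2.01 with Al. Al replicate 1 fell among the controls, so the groups overlapped. The Al mean was 208% of the control mean, with a log2 fold change of 0.91 (SE 0.373, 95% CI 0.063 to 1.76) and an adjusted P of 0.0597 by limma. The values rest on 51 to 102 reads in a control library and 32 to 74 in an Al library. The call was lost without control replicate 1 (0.88), control replicate 2 (0.69), Al replicate 2 (0.74) or Al replicate 3 (0.71). The deposited FPKM (0.47), TPM (0.21) and a pseudocount of 1 (0.53) also ended it. So did no filter, no trend, voom and leaving out both libraries numbered 3, which makes 11 of 18 alternatives. The exons of Ankrd37 also overlap those of Lrp2bp and Ufsp2 on the other strand, over 349 and 57 bases.

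Of 13 paralogs of the 10 genes, 8 were tested, 0 were called higher in limma (0 with an unadjusted P under 0.05 and a positive log2 fold change) and 4 lower, with a median of -0.54, against 26.2% higher and 24.4% lower of all tested genes. The other scalings also gave 0 higher, with 5 lower for the deposited FPKM, 7 for TPM and 4 for quantile normalization, and medians of -0.98, -1.25 and -0.73. At these scalings 1805, 1199 and 2859 of all 12889 tested genes were higher and 5417, 6845 and 3115 lower. The medians of all genes were -0.43, -0.72 and -0.03. Ndrg3 fell from 17.8 to 5.93 scaled FPKM (-1.57) and Ndrg4 from 3.41 to 1.32 (-1.36), the same direction as Ndrg1. Vegfd fell from 28.2 to 17.7 (-0.73), and Egln2 fell as given above. Vegfb (0.01), Pgf (-0.35), P4ha3 (0.54) and the mitophagy receptor Bnip3l (-0.07) were not called. Vegfc was at 0 in all 6 libraries, and Adm2, Ndrg2, Epas1 and Hif3a had means of at most 0.0156.

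Within each group, replicate 3 tended to have the highest values of these genes. Control replicate 3 was above both other controls for 7 of the 9 tested genes, with a median log2 difference of 0.42 from their mean, where 35.3% of all tested genes had their highest control value there. Al replicate 3 was above both other Al libraries for 8 of the 9, with a median of 0.61, against 42.2% of all tested genes. Adm went the other way in the control group, where replicate 3 was the lowest. Al replicate 1 was the highest Al library for 0 of the 9, with a median of -0.65, against 30.3% of all tested genes. Other HIF targets and glycolytic targets had their highest control value in replicate 3 for 23 of 31 and 14 of 17 genes, and their highest Al value in replicate 3 for 17 of 31 and 7 of 17. What set these libraries apart was not tested. With both libraries numbered 3 left out, an alternative chosen after seeing the data, 2 of the 9 genes were called higher and 3 lower, with Adm at -2.88, Egln1 at 0.87 and P4ha1 at 0.89.

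**Figure D2:**
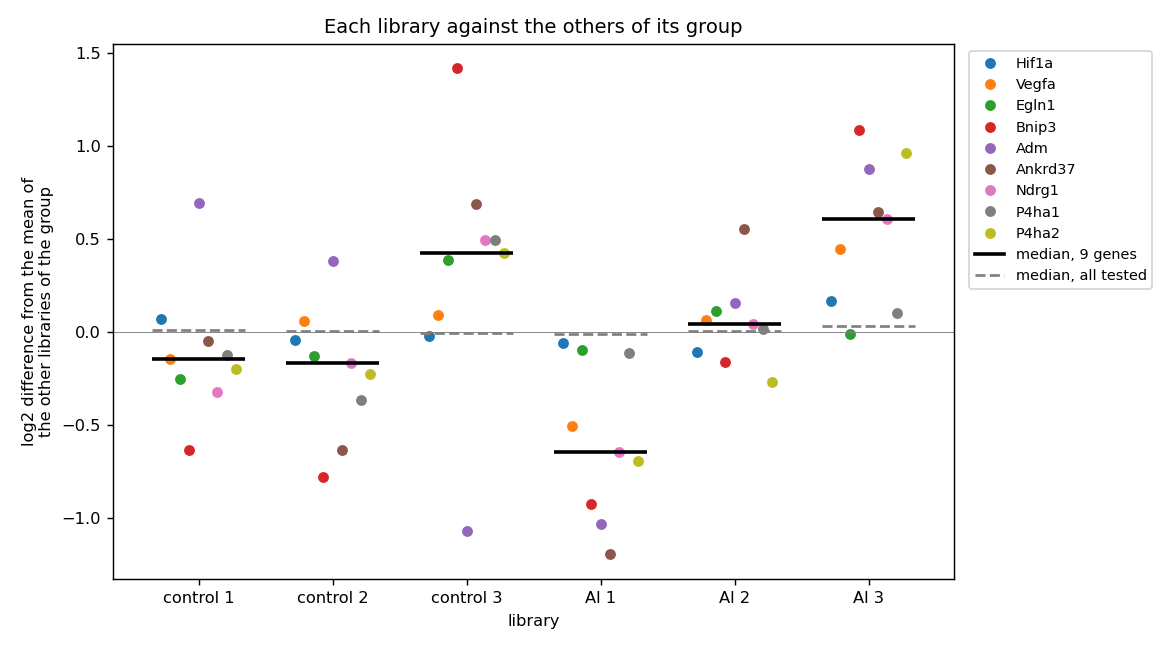
Log2 difference of each library from the mean of the other libraries of its group, for the 9 tested genes (points), with their median (black) and the median of all tested genes (dashed). The medians of the 9 genes are highest in control replicate 3 (0.42) and Al replicate 3 (0.61) and lowest in Al replicate 1 (-0.65), while those of all genes stay near 0.

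The scaling of the libraries changed part of the calls. Against a median log2 fold change of all genes of 0.03 with size factors, it was -0.43 for the deposited FPKM, -0.72 after TPM scaling and -0.03 after quantile normalization. With FPKM as deposited, 0 of the 9 genes were called higher and 5 lower, with TPM 0 and 5, and with quantile normalization 1 and 5. Of all 12889 tested genes, 1805 were higher and 5417 lower in the first of these, 1199 and 6845 in the second and 2859 and 3115 in the third. Hif1a and Vegfa were then called lower, at -0.84 and -0.90 with FPKM as deposited. Relative to the median of all genes they were at -0.41 and -0.46 for the deposited FPKM, -0.43 and -0.48 for TPM and -0.58 and -0.71 for quantile normalization, against -0.39 and -0.44 with size factors. Egln1 had 0.24, -0.055 and 0.39 under the 3 other scalings and P4ha1 had 0.27, -0.024 and 0.31, and neither was called in them. Relative to the same median, Egln1 was at 0.68, 0.66 and 0.41 and P4ha1 at 0.71, 0.69 and 0.34, against 0.70 and 0.73 with size factors. Adm and Ndrg1 were called lower in 18 of the 18 alternatives and P4ha2 in 17. Egln1 and P4ha1 were called higher in 15 of the 18 and Ankrd37 in 7.

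**Figure D3:**
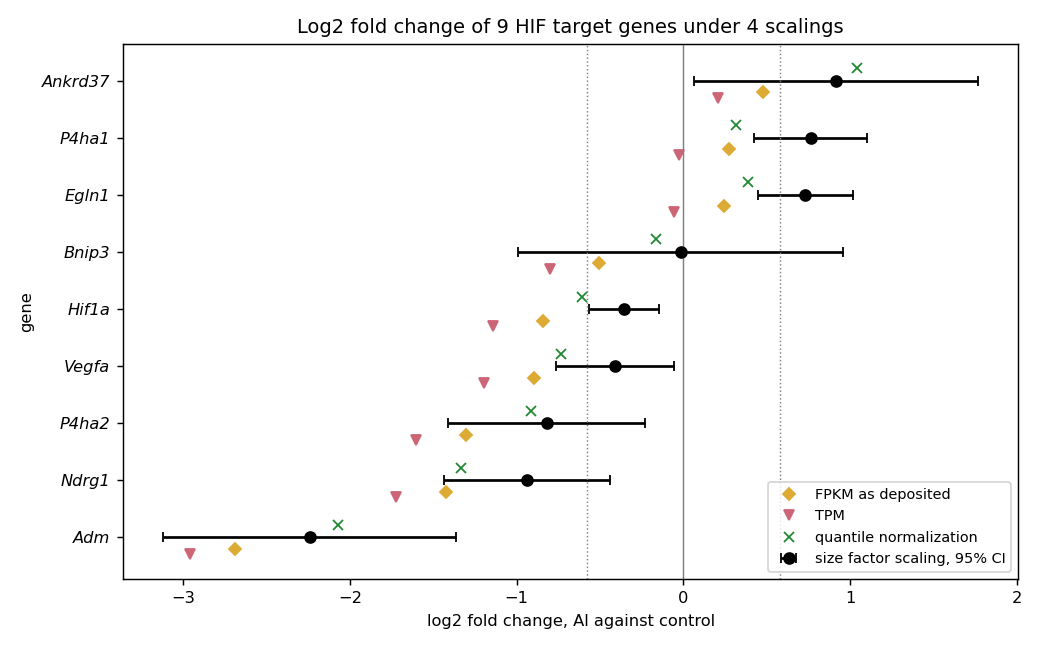
Log2 fold change of the 9 tested genes, Al against control, with size factors (black, 95% CI) and with 3 other scalings (coloured symbols); dotted lines mark the size threshold of 0.58 in both directions. Adm, Ndrg1 and P4ha2 lie below the lower line under all 4 scalings, and Egln1 and P4ha1 lie above the upper line with size factors only and just under 0 with TPM.

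A wider list of 40 other HIF targets outside glycolysis, of which 31 were tested, had 12 genes called higher and 4 lower and a median log2 fold change of 0.24. The split moved with the scaling, to 8 and 7 for the deposited FPKM, 6 and 13 after TPM scaling and 11 and 5 after quantile normalization, where the medians were -0.25, -0.55 and 0.13. All 12889 tested genes moved too, to 1805 higher and 5417 lower, 1199 and 6845, and 2859 and 3115. Their medians were -0.43, -0.72 and -0.03, below that of the list at each scaling. The largest increases were those of Ier3, an immediate early survival gene (log2 fold change 3.21, SE 0.328), and of the heme oxygenase Hmox1 (2.35, SE 0.207). Both genes also answer to stress pathways other than HIF. The largest decreases were those of the sterol regulator Insig2 (-1.52, SE 0.207), the MYC antagonist Mxi1 (-1.17, SE 0.243) and the secreted glycoprotein Stc2 (-0.92, SE 0.149). The called share of the list with size factors was thus close to the 50.6% of all tested genes. Its split of 12 higher and 4 lower of 31 stood against 26.2% higher and 24.4% lower of all. Of 18 glycolytic HIF targets 17 were tested, with 8 called higher, 2 lower and a median of 0.47, where 26.2% of all tested genes were higher and 24.4% lower. The counts were 5 and 4 for the deposited FPKM, 2 and 6 after TPM scaling and 4 and 4 after quantile normalization, and the median became -0.01 for the deposited FPKM, -0.31 after TPM scaling and -0.03 after quantile normalization. The counts of all tested genes at these scalings are those given for the wider list. The glycolytic median lay above that of all genes for the deposited FPKM (-0.43) and TPM (-0.72). For quantile normalization it was about equal to it (-0.03). Pgam1 (1.45), Aldoc (1.44) and Pgk1 (1.34), enzymes of the pathway, had the largest increases, and Pfkp (-1.22) and Pfkfb3 (-0.75) were lower.

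**Figure D4:**
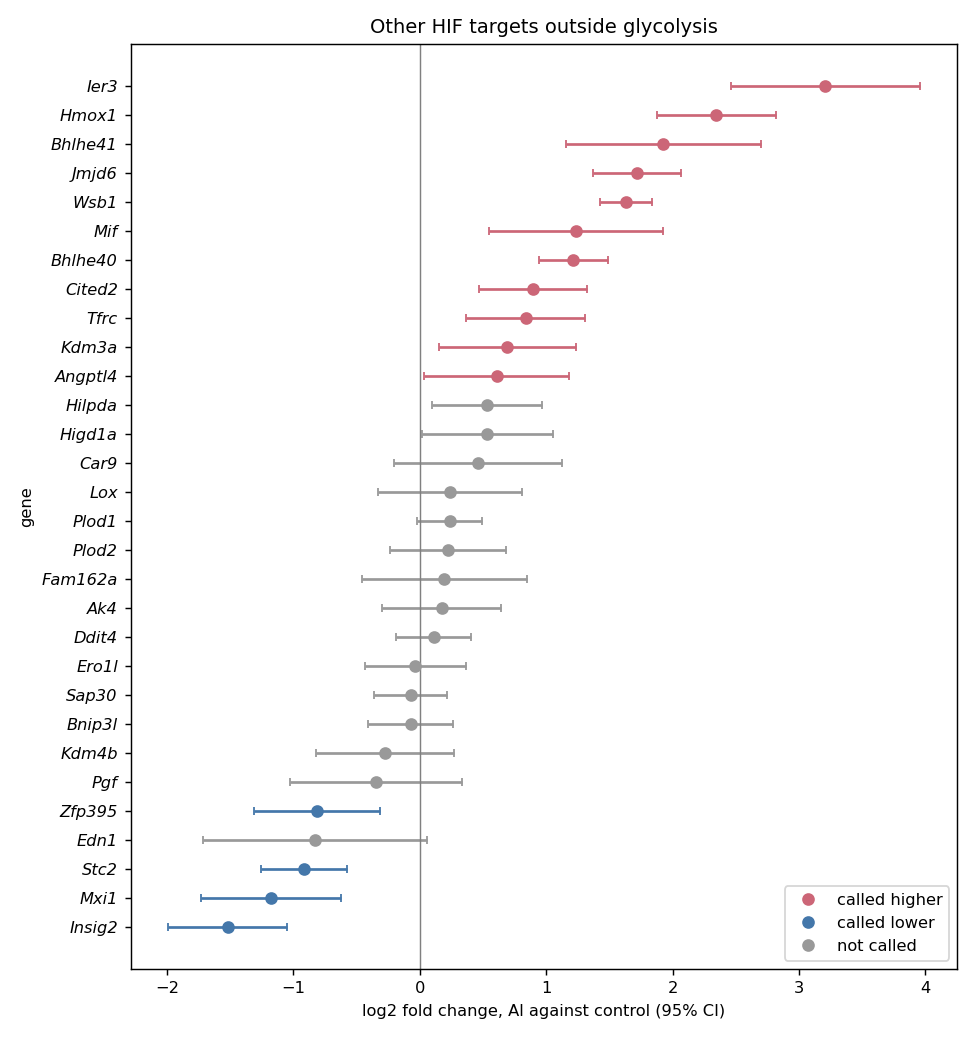
Log2 fold change with its 95% CI, Al against control with size factors, of the tested genes of the wider list of HIF targets outside glycolysis, all but 1 of them, ordered by value and coloured by call. The genes called higher run from Angptl4 (0.61) to Ier3 (3.21) and the 4 called lower from Insig2 (-1.52) to Zfp395 (-0.81).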

How the data were processed

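RNA was measured in 6 input libraries of HT22 cells. The authors deposited an FPKM value for each gene symbol in each library and did not scale between libraries. The paper names Trimmomatic, SortMeRNA, HISAT2 and GRCm38, while the submitters' processing notes name fastp, HISAT2, HTSeq and GRCm39, and the design text a yak assembly; versions are not given in the sources used here. The study called genes with DESeq2, which needs counts and was not run.

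FPKM follow from whole reads, gene length and library total. Whole reads came out for 17688 of the 17688 genes above 0 (tolerance 0.001 reads), taken as the smallest whole numbers that satisfy the values, so that a true count can be a multiple of a printed one where reads and length share a divisor. Genes were tested with limma 3.58.1 in R 4.3.3 (lmFit, eBayes with trend) on log2(FPKM over the size factor, plus 0.1), for the 12889 genes whose mean FPKM reached 0.1, with Benjamini-Hochberg adjustment over all of them. Fold changes on this scale understate the change of low genes. Confidence intervals are 95% intervals from limma. The scripts were tested on simulated data. Size factors were medians of ratios over genes detected in every library at a mean FPKM of 1 or more.

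The members and lists were chosen with earlier results of these data known. Named were all 10 members, all genes of the lists of receptors, collagen partners, paralogs and HIF regulators, and up to 3 called genes per direction of the wider lists. In the wider list, 1 gene is counted but not reported here. The 3 genes most like the called member with the largest change were also named. The list symbols Ero1a, Elob, Eloc and Lepre1 were matched to Ero1l, Tceb2, Tceb1 and P3h1 through RefSeq synonyms. Positions and overlaps came from GENCODE and promoter windows from RefSeq, both on GRCm38; copies were found with minimap2 2.31-r1302. Alternatives covered scaling, pseudocount, filter, trend, replicate block, each library left out, voom on the recovered reads, thinned reads and the adjusted P. Tables used Python 3.11.15, numpy 2.4.6 and pandas 2.3.3, and figures matplotlib 3.10.9.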

Additional observations from a re-analysis of the deposited data

How the results depend on the processing

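Scaling moved the counts of called genes most. From 3 called higher and 3 lower, FPKM as deposited gave 0 and 5, TPM 0 and 5, and quantile normalization 1 and 5. Of all 12889 tested genes, these settings called 1805, 1199 and 2859 higher and 5417, 6845 and 3115 lower. With TPM the log2 fold change of Egln1 turned to -0.055 and that of P4ha1 to -0.024, but TPM moved the median of all genes to -0.72, and relative to it they were at 0.66 and 0.69, against 0.70 and 0.73 with size factors. With quantile normalization, where that median was -0.03, Egln1 was at 0.39 and P4ha1 at 0.31, and neither was called. Each library left out in turn gave 2 to 3 called higher and 2 to 3 called lower. Over those fits Bnip3 ran from -0.37 to 0.44. It was 0.019 with reads thinned to the smallest library and 0.094 without both libraries numbered 3. Pseudocounts of 0.01 and 1, a mean FPKM of at least 1, no filter, no trend, voom and the adjusted P gave 2 or 3 higher and 3 lower. The replicate block gave 3 higher and 3 lower. The deviations of same-numbered libraries correlated at -0.077, -0.060 and -0.11 over 10349 genes, so the numbers were not taken to pair samples. With the block the SE of Bnip3 was 0.149 in place of 0.427. The Al values of Egln3, Adm and Ankrd37 rest on 74 reads or fewer per library. With reads thinned to the smallest library, Adm was at -2.24 and Ankrd37 at 1.02, and both were still called. The causes of these shifts were not tested.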
